A study of Mus musculus with 4 samples.

Results

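The strong promoter peaks of control cells were 3229 open chromatin regions that the authors annotated as promoter and in which the log2 of their mean normalized read count with the luciferase guide was 9 or more, that is 512 normalized reads. Selected on the control level, they were 3229 of 13620 promoter peaks and of 80881 peaks in all, and belonged to 3215 of the 11929 genes with a promoter peak. For that reason their levels and their differences between the groups are given as descriptions and carry no test of their own. ATAC-seq, which tags open DNA with adapters carried by a transposase, was done on KPC cells, a line grown from a lung adenocarcinoma of a KP mouse. All cells carried Cas9 from a lentivirus selected with puromycin, and CRISPR activation used the lenti-SAM-Hygro vector, so the control differed from the treated group in its guide. The group mA2 dRNA had a guide to Malat1, which is transcribed into a long nuclear noncoding RNA, and the group Con dRNA a guide to luciferase. Each group held 2 biological replicate cell samples of this one line, 4 libraries in all. The study asked whether overexpressed Malat1 changes which chromatin is open.

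A promoter becomes accessible when nucleosomes are kept off the DNA around a start of transcription by transcription factors and remodelling enzymes. Promoters of housekeeping genes often lie in CpG islands and stay open in most cell types, whereas many promoters of lineage genes open in a few. NF-Y binds the CCAAT box, the SP and KLF families bind GC boxes, and ETS factors bind a purine-rich core with the letters GGAA. Where 2 genes start back to back on opposite strands, a single open region can serve both.

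All levels below are the authors' mean normalized reads per group in their deposited table, in mm10 coordinates. A peak is described as called, or as having risen or fallen, where the authors' deposited table gives an adjusted p under 0.05. No value per library was used, because the names of those columns match no sample label, so no spread, error or depth per library stands beside the means. Whether a difference exceeded the replicate error therefore rests on the authors' p-values, by a test not given in the sources used here. In a bulk assay, fewer cells with an open promoter and less signal per cell cannot be told apart.

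Promoter sequences are shown here for 9 of these genes, because the share with a CCAAT box was the motif share that differed most, in percentage points, between strong and weaker promoters, and because Jup, Myh10, Fbxo5 and Angptl2 were among the called peaks. The sequences are the RefSeq promoter windows of build GRCm38.p6, from 250 bases before to 50 bases after the start site, written 5′ to 3′ on the strand of the gene. Capitals mark CCAAT on either strand (read as ATTGG on the other) and the ETS motif CCGGAAG on either strand. Pdia4 (chr6:47813463-47813762, minus strand) and Hspa5 (chr2:34771840-34772139, plus strand) encode a disulfide isomerase and the chaperone BiP of the endoplasmic reticulum, and hold 3 and 4 CCAAT boxes. Osbp (chr19:11965594-11965893, plus strand), an oxysterol-binding protein, and Tubb4b (chr2:25224653-25224952, minus strand), a beta-tubulin, hold 5 each. The BC005624 window (chr2:30981892-30982191, minus strand) has no CCAAT box and 1 ETS motif, and its peak spans start sites on both strands. Of the called genes, Jup (chr11:100397741-100398040, minus strand) holds 2 boxes, Myh10 (chr11:68691665-68691964, plus strand) 3, Fbxo5 (chr10:5805416-5805715, minus strand) 3 and Angptl2 (chr2:33215711-33216010, plus strand) none of the marked motifs.
Pdia4: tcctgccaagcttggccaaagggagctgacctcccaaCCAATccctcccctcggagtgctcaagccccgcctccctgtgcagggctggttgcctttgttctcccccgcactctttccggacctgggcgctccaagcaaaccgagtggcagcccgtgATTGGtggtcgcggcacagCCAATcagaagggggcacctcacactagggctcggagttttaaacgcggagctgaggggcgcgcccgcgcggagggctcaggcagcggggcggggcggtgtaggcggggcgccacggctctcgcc
Hspa5: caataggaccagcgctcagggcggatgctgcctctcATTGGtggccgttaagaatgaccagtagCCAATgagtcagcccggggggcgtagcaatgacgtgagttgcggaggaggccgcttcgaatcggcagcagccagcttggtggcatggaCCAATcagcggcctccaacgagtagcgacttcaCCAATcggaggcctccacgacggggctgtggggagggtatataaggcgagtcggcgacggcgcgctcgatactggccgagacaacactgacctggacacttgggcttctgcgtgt
Osbp: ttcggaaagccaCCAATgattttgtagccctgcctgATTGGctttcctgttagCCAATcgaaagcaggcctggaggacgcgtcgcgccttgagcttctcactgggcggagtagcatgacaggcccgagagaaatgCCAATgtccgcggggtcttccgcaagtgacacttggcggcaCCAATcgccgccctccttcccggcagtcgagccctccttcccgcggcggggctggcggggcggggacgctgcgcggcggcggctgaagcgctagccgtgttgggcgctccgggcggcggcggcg
Tubb4b: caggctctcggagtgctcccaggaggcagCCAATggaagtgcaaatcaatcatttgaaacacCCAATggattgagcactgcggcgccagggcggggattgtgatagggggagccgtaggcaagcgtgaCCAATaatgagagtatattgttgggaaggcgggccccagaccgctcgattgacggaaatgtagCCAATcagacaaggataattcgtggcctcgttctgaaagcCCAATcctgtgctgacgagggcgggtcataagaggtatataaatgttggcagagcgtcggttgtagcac
BC005624: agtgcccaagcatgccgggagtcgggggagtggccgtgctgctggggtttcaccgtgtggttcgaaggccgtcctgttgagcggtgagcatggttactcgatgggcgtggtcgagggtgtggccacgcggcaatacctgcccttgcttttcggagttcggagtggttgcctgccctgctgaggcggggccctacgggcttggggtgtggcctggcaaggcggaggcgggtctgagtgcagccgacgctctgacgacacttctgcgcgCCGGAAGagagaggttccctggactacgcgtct
Jup: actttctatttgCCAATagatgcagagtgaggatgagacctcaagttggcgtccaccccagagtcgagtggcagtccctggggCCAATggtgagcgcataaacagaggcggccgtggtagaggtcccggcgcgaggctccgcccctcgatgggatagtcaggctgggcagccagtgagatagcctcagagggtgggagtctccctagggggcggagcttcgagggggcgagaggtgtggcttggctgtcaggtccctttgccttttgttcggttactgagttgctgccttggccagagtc
Myh10: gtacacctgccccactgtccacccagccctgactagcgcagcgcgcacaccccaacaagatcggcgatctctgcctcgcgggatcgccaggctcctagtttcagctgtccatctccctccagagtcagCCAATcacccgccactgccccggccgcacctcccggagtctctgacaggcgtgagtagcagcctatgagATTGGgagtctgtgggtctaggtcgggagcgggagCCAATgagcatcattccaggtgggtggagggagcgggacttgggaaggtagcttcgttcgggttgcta
Fbxo5: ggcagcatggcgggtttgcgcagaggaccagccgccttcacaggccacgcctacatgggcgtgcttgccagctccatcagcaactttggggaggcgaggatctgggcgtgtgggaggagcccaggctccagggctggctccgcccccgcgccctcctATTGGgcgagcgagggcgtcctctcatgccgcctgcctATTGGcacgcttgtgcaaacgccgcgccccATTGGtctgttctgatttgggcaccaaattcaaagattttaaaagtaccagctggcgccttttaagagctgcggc
Angptl2: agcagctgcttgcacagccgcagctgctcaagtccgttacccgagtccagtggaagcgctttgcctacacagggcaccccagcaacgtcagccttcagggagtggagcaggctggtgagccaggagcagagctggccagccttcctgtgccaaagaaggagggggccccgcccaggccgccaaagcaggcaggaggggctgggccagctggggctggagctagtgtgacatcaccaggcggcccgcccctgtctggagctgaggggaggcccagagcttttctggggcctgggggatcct

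In Hspa5 the boxes are centred 212, 184, 96 and 63 bases before the start site, and in Fbxo5 91, 53 and 23 bases before it. A match of letters is a description of the sequence and not a bound site, and a window without a match says only that those letters are not in it. The Osbp peak overlapped 127 bases of the window shown and the Pdia4 peak 209, while the peaks of Jup, Myh10, Fbxo5 and Angptl2 covered all 300 bases.

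The strong promoter peaks were 3.99% of the peaks and held 20.5% of the normalized reads in peaks with the luciferase guide and 19.9% with the Malat1 guide. Peaks outside promoters that reached the same limit were 2.84% of the peaks and held 13.5% of the reads with the luciferase guide. The rule picks peaks by level, so a share of reads above the share of peaks, and a high median level, are built into it. The control level of the strong promoter peaks had a median of 715 reads, with quartiles of 597 and 906, against a median of 180 in the other promoter peaks. Of the 3229 peaks, 3219 were windows of 401 bp, so the level is close to a level per length. At the edge of the rule, the 5 peaks just inside lay between 512.4 and 512.7 reads (Cep97, Pask, Ttll7, Iws1 and Atg4d), and the 5 just outside lay between 511.4 and 511.9 (Mars1, Herc4, Dhrs9, Tmem179b and Lgals9).

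The highest level, 13468 reads with the luciferase guide and 14422 with the Malat1 guide, was at Rn45s, the repeated 45S ribosomal RNA precursor, whose reads come from many copies and whose value is uncertain. Below it the 11 strongest genes lay close together, between 1827 and 2200 reads. Mtmr4, a lipid phosphatase of endosomes, had 2200 reads with the luciferase guide and 2332 with the Malat1 guide, and Sp1, a factor that binds GC boxes, had 2167 and 2396. Rab40c, a small GTPase linked to ubiquitin ligases, had 2063 and 2048, and Hjurp, the chaperone that loads CENP-A at centromeres, had 2043 and 2045. Fbxo24 had 1978 and 1765 reads, Hip1, a clathrin adaptor, 1948 and 1744, and Pdia4 1902 and 1868. Osbp had 1867 and 2047 reads, the splicing and decay regulator Khsrp 1856 and 1873, the NuRD subunit Gatad2a 1840 and 1990, and BC005624 1827 and 1920. None of the 12 was called, and the authors' deposited table gives them an adjusted p of 0.481 or more.

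In position, the strong peaks sat on the start site itself more often than the pool of other promoter peaks. The authors' distance was 0 for 2565 of them (79.4%), against 58.2% of the other promoter peaks. A further 9.51% lay upstream and 11.1% downstream of the start site, where 28.2% of the other promoter peaks lay downstream. Just under the cutoff, at control log2 means of 8 to 9, 76.5% lay over the start site and 15.4% downstream. The share over the start site was 80.2% at 9 to 10 and 75.7% at 10 or more, so it did not rise steadily with level. It was 60.8% at 7 to 8 and between 36.2% and 42.7% in the classes under 7. The largest distance among promoter peaks was 1000 bp. In 14 genes 2 peaks passed the rule, among them Junb, a subunit of AP-1, the glycolytic enzyme gene Gapdh, the ferritin gene Ftl1 and the importin gene Kpnb1 (these 14 were picked out after their values were seen). The Junb peaks over the start site and 947 bp upstream held 857 and 913 reads with the luciferase guide and 1006 and 1009 with the Malat1 guide.

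Start sites on both strands inside a single peak were more frequent among the strong promoters. Of 2265 strong peaks that held a RefSeq start site, 401 held start sites of different genes on both strands (17.7%, Wilson 95% interval 16.2% to 19.3%), against 504 of 5037 other promoter peaks (10.0%, 9.21% to 10.9%). The share was 6.74% at control log2 means under 5 (4.36% to 10.3%) and 4% at 5 to 6, and then went through 13.5% at 8 to 9 to 20.4% at 10 or more. The intervals cover counting error only and treat promoters as independent. Examples, chosen after their values were seen, are BC005624 with Usp20, Mis12, a kinetochore gene, with Derl2, a gene of protein degradation at the endoplasmic reticulum, and Cks1b, a subunit of cyclin-dependent kinase complexes, with Shc1, an adaptor of receptor signalling. The Mis12 peak held 1605 reads with the luciferase guide and 1668 with the Malat1 guide, and the Cks1b peak 1582 and 1508.

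Of the motifs searched, the CCAAT box differed most in percentage points between strong and weaker promoters. A RefSeq window of the assigned gene overlapped 2377 of the 3229 strong peaks (73.6%) and 5393 of the 10391 other promoter peaks (51.9%), and the remaining peaks have no sequence here. CCAAT on either strand was in 54.9% of the strong promoters (52.9% to 56.9%), in 33.4% of the other promoters and in 37.4% of all 32851 RefSeq promoter windows. The share stayed between 29.9% and 36.3% at control log2 means under 9, then was 51.9% at 9 to 10 and 69.6% at 10 or more. Windows with 2 or more boxes, such as those of Pdia4, Hspa5, Osbp and Tubb4b, made up 30.9% of the strong promoters and 10.1% of the others, and 49.3% of those at 10 or more. Windows with 4 or more made up 5.47% against 0.723%, and 15.2% at 10 or more.

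**Figure D1:**
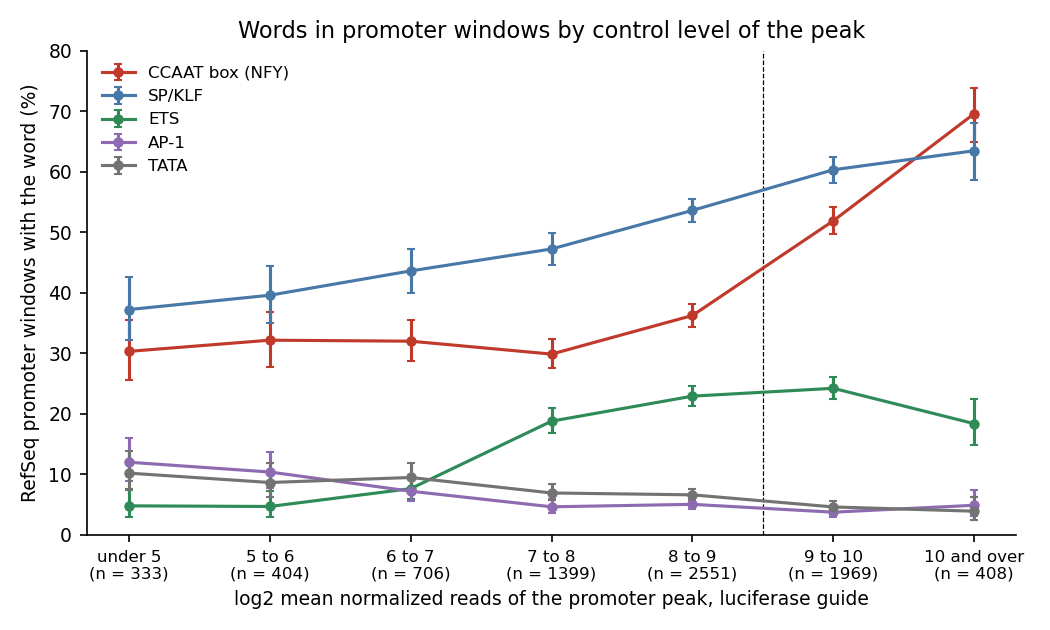
Share of RefSeq promoter windows (percent, y axis) holding each of 5 motifs on either strand, by control log2 mean of the promoter peak (x axis, n windows in each class); bars are Wilson 95% intervals and the dashed line is the cutoff of 9. The CCAAT share lies between 29.9% and 36.3% left of the line and reaches 69.6% in the strongest class, where the SP/KLF share is 63.5% and the TATA share is lower than at the left.

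Base composition differed too, and the CCAAT shares were compared within it. Median GC content was 63.3% in the strong promoters and 61.0% in the others, and the median CpG observed over expected was 0.818 and 0.761. At control log2 means of 8 to 9 these medians were 61.7% and 0.806, so the CpG ratio just under the cutoff was close to that of the strong promoters. In each of 5 GC classes from 50% to 75% the strong promoters held CCAAT more often, for example in 58.6% against 31.5% at 60% to 65% GC and in 44.7% against 22.2% at 70% to 75%. The frequency of boxes was highest in the same place in both groups, 75 to 50 bases before the start site, at 18.1 boxes per 100 strong promoters and 7.70 per 100 other promoters.

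**Figure D2:**
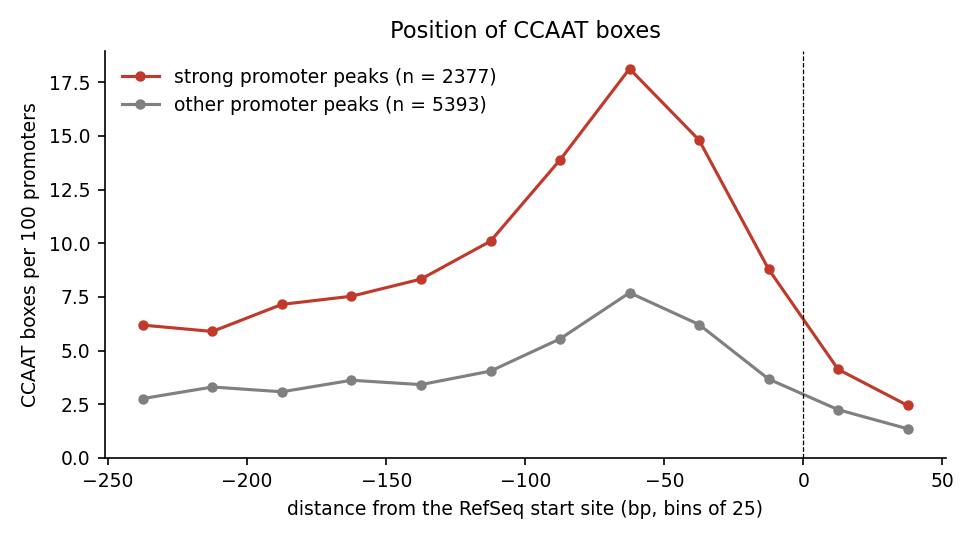
CCAAT boxes on either strand per 100 promoters (y axis) in bins of 25 bp by distance from the RefSeq start site (x axis, bp), for 2377 strong and 5393 other promoters. Both lines peak 75 to 50 bases before the start site, at 18.1 and 7.70 boxes per 100 promoters.

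The other motifs followed several patterns. The GC box of SP and KLF factors, GGGCGGG, was in 60.9% of strong, 48.6% of other and 25.6% of all RefSeq promoters. The ETS motif CCGGAAG was in 23.2%, 17.4% and 8.86%. Its share was 4.70% at control log2 means of 5 to 6, 22.9% at 8 to 9, 24.2% at 9 to 10 and 18.4% at 10 or more. It was thus about as frequent just under the cutoff as in the strong promoters. TCTCGCGA, bound by BANP, was in 4.12%, 1.71% and 0.995%. TGACGTNA, which includes the cyclic AMP response element TGACGTCA, was in 7.19% of strong and 4.80% of other promoters. Intervals of strong and other promoters overlapped for TGACGTCA itself (4.21% and 3.47%), AAGATGGC of YY1 (5.38% and 4.36%), GCATGCGC of NRF1 (5.60% and 5.79%), the E-box CACGTG (10.5% and 10.9%) and GGANTTTCC of NF-kB (1.22% and 1.50%). Less frequent in the strong promoters were 2 motifs. TGANTCA, bound by AP-1, was in 3.95% of strong, 6.06% of other and 7.81% of all RefSeq promoters, and TATAAA in 4.50%, 7.45% and 13.6%. At control log2 means of 8 to 9 the shares were 53.6% for GGGCGGG, 2.70% for TCTCGCGA, 5.72% for TGACGTNA, 5.06% for TGANTCA and 6.62% for TATAAA. Each motif was searched on both strands, and no enrichment test was run.

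By function, immediate early genes, chaperones and cytoskeletal genes had strong promoters most often. Over all genes with a promoter peak, 27.0% had a strong one. Of the immediate early and AP-1 genes, which answer growth factors and stress, 28 of 38 had one, led by Klf10, a TGF-beta-induced factor (1256 reads with the luciferase guide, 1501 with the Malat1 guide), Gadd45a, a stress sensor (1237 and 1260), and Fosl2, a subunit of AP-1 (1230 and 1162). The strong promoters of this list held a median of 818 reads with the luciferase guide. Among chaperones 17 of 25 had one, with a median of 1042 reads, led by Pdia4, Hspa5 (1581 and 1704) and Cct7, a subunit of the chaperonin that folds actin and tubulin (1370 and 1329). Among cytoskeletal and adhesion genes the count was 20 of 32, led by Zyx, a focal adhesion protein (1681 and 1835), Myh9, nonmuscle myosin heavy chain A (1680 and 1942), and Tubb4b (1625 and 1700).

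Genes of growth and metabolism had smaller shares. Strong promoters were found for 21 of 40 splicing and paraspeckle genes, led by Hnrnpc (1069 and 1051), 24 of 49 cell cycle and replication genes, led by the replication helicase gene Gins2 (1551 and 1649) and the sliding clamp gene Pcna (1211 and 1308), and 16 of 33 translation factors, led by the release factor gene Etf1 (1568 and 1489). Proteasome genes gave 14 of 35, ribosomal protein genes 27 of 69 and respiratory chain genes 17 of 50. Their strongest peaks were at Psma5 (1140 and 979), Rps21 (1579 and 1758) and Atp5g1 (1392 and 1431). The replication-dependent histones gave 16 of 41, with the strongest at H2bc18 (1012 and 918), and their near-identical copies make single values uncertain. Of 14 strong histone promoters with a sequence, 12 held 2 or more CCAAT boxes, as did 8 of 13 chaperone promoters, 10 of 19 cell cycle promoters and 2 of 9 translation factor promoters.

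Signalling genes were divided. NF-kB pathway genes had 12 strong promoters of 25, led by Map3k14, the kinase of the noncanonical branch (1368 and 1417), and Traf2 (1009 and 1125), and interferon and antigen presentation genes 9 of 31, led by the receptor gene Ifngr1 (1130 and 1028). Of 34 chemokine and cytokine genes with a promoter peak, 4 had a strong one: Ccl25 (838 and 848), Csf1 (779 and 733), Ereg (554 and 583) and Hbegf (521 and 596). The promoter of Ccl2, a chemokine that attracts monocytes, lay just under the rule, with 509 reads with the luciferase guide and 632 with the Malat1 guide (adjusted p 0.647, authors' deposited table).

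Lung lineage and mesenchymal genes had a strong promoter about as often as all genes with a promoter peak, of which 27.0% did. Of 14 lung lineage genes with a promoter peak, 4 had a strong one (28.6%): Etv5 (875 and 1006), Id2 (654 and 636), Cebpa (594 and 799) and Abca3, the lipid transporter of alveolar type II cells (586 and 565). Only these 14 of the 25 lung lineage genes listed had a promoter peak in the table used here, and Nkx2-1 and Sftpc were among those without. Epithelial genes gave 1 of 14 (7.14%), Jup, with a median of 68.7 reads over all their promoter peaks, and the E-cadherin promoter, Cdh1, held 90.7 and 129.6 reads. Mesenchymal genes gave 6 of 23 (26.1%), led by Snai1 (799 and 787) and Fn1 (791 and 908). None of the 4 leukocyte markers with a promoter peak had a strong one, and of 7 endothelial and fibroblast markers Col1a1 alone did (516 and 555).

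Between the groups the strong promoter peaks differed little. The median log2 difference, Malat1 guide minus luciferase guide, was 0.05, with an interquartile range of 0.17 and the 5th and 95th percentiles at -0.21 and 0.24. In 2098 peaks (65%) the Malat1 guide had the higher mean. The share was close to this in all peaks (60.8%), other promoter peaks (63.6%) and strong peaks outside promoters (60.3%). With the median of all peaks, 0.09, subtracted from each difference the median of the strong promoter peaks was -0.0400. A rule on the control mean favours lower differences, so that sign is not read further. Of the 3229 peaks, 2759 (85.4%) differed by less than 0.2 on the log2 scale and none by more than 2-fold, while 320 of the other promoter peaks (3.08%) did. Differences over 2-fold were mostly at weak peaks, 140 of 855 at control log2 means under 5 against 1 of 3750 at 8 to 9. The interquartile range of the difference narrowed with level, from 0.57 at control log2 means of 5 to 6 to 0.15 at 10 or more. At 8 to 9, just under the cutoff, the median was 0.05 and the interquartile range 0.21. Peaks outside promoters with a control log2 mean of 9 or more had a median of 0.05 and an interquartile range of 0.26. Of these 2299 peaks, 3 (0.13%) differed by more than 2-fold. A small median and few differences over 2-fold were thus shared by other peaks of like level. With the same limit of 512 reads applied to both groups, 3079 promoter peaks reached it in both, 150 with the luciferase guide alone and 355 with the Malat1 guide alone.

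**Figure D3:**
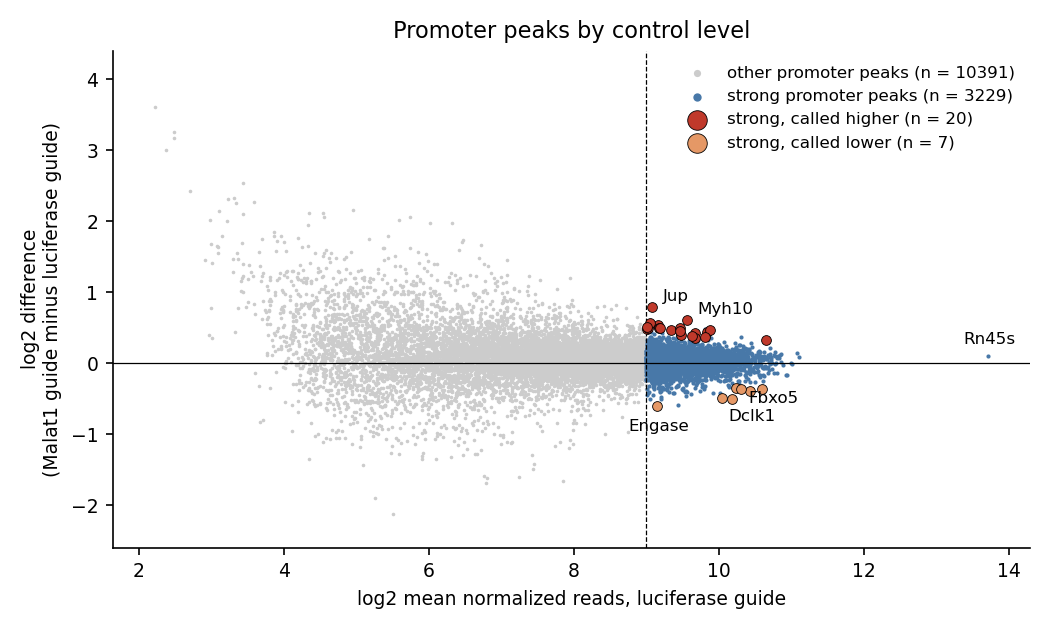
Log2 difference between the Malat1 and luciferase guides (y axis) by control log2 mean of normalized reads (x axis) for 3229 strong (blue) and 10391 other (grey) promoter peaks; the dashed line is the cutoff of 9, and the 20 peaks called higher and 7 called lower are outlined. Strong peaks lie between -0.61 and 0.79, with Jup at the top and Engase at the bottom.

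The calls, made on the authors' adjusted p, were 20 strong promoter peaks higher (0.619%) and 7 lower (0.217%). Over all 80881 peaks these shares were 2.23% and 0.507%. Since the rule read the control mean, which enters this contrast, nothing is read from that comparison. The authors' deposited table holds an unadjusted p under 0.05 for 217 strong peaks, of which 130 were higher and 87 lower; they were 6.72% of the strong peaks, against 11.7% of all peaks.

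The largest rise was at Jup, plakoglobin, a plaque protein of desmosomes and adherens junctions. Its peak, chr11:100397655-100398055, lay over the start site and held 542 reads with the luciferase guide and 934 with the Malat1 guide, a 1.72-fold rise (adjusted p 1.22e-05, authors' deposited table). The Myh10 peak, chr11:68691640-68692040, rose 1.52-fold from 760 to 1155 reads (adjusted p 0.00101, authors' deposited table). Myh10 encodes nonmuscle myosin heavy chain B, a motor of the contractile cortex. In both genes the peaks outside the promoter were higher too, 3 of 3 for Jup with a median log2 difference of 0.81 and 4 of 4 for Myh10 with 0.54, and none of these 7 was called.

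The other 18 rises lay between 1.26-fold and 1.48-fold. None of these 18 was still called once the median difference of its chromosome or of its 10 Mb window was subtracted (adjusted p 0.113 to 1, computed from the p in the authors' deposited table), while Jup and Myh10 were. Gbf1, an exchange factor for Arf GTPases at the Golgi, rose 1.38-fold from 947 to 1304 reads, and Angptl2, a secreted angiopoietin-like protein, 1.36-fold from 915 to 1245. Hps6, a subunit of a complex that builds lysosome-related organelles, rose 1.48-fold from 534 to 793. Btrc, which recruits IkB and beta-catenin to a ubiquitin ligase, rose 1.34-fold from 817 to 1097. Of these 4 genes Angptl2 alone is not on chromosome 19. Zswim6 rose from 583 to 822 reads, Actr1a, a subunit of dynactin, from 650 to 896, Cdip1, a proapoptotic target of p53, from 710 to 1002, and Nolc1, a nucleolar phosphoprotein, from 706 to 969. B3gntl1 rose from 1612 to 2027 reads and Sfr1, a factor of recombination repair, from 579 to 814. For these 10 the authors' deposited table gives an adjusted p between 0.00156 and 0.0226. Dusp5, a nuclear phosphatase of ERK and the called member of the immediate early list, rose 1.45-fold from 574 to 833 reads (adjusted p 0.0274, authors' deposited table). The remaining 7 higher calls were Stat5a, Wbp1l, Metrnl, Gsto2, Ahnak, Cavin1 and Lgals1.

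The 7 falls were of 1.28-fold to 1.52-fold, and with the window median subtracted Engase and Dclk1 alone were still called. Engase, a cytosolic enzyme that trims N-glycans, fell 1.52-fold from 570 to 374 reads (adjusted p 0.0183, authors' deposited table). Fbxo5, known as Emi1, an inhibitor of the anaphase-promoting complex, fell 1.41-fold from 1162 to 823 (adjusted p 0.00336, authors' deposited table). Dclk1, a doublecortin-like kinase of microtubules, fell 1.40-fold from 1059 to 757 (adjusted p 0.00656, authors' deposited table). A peak assigned to Mir29a, a microRNA gene, and 411 bp from its start, fell from 1390 to 1061 reads. Mtrf1l, a mitochondrial release factor, fell from 1558 to 1206, Sde2, a genome maintenance gene, from 1269 to 984, and Baz1b, a chromatin remodelling subunit, from 1206 to 943. The Spart peak had a lower mean with the Malat1 guide (593 and 416 reads) and did not pass (adjusted p 0.120, authors' deposited table).

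Among the strong promoter peaks of the gene lists, Jup and Dusp5 alone were called, both higher, where 2.23% of all peaks were. Weaker promoter peaks of the lists, outside the rule, were called too. Of all promoter peaks of a list, strong or weaker, 2 of 39 were higher among chemokines and cytokines and 2 of 27 among mesenchymal genes. Among lung lineage genes 2 of 18 were lower, where 0.507% of all peaks were. The immediate early list had a higher mean with the Malat1 guide in 24 of 29 strong peaks, with a median log2 difference of 0.12, and the NF-kB list in 11 of 12 with 0.13, against 0.05 over all strong promoter peaks. Of all strong promoter peaks 65% had the higher mean, and of all peaks 60.8%. In the NF-kB list Nfkb2, the p100 precursor of the noncanonical branch, held 902 and 1262 reads (adjusted p 0.0755, authors' deposited table), and Rela, Relb and Nfkbia had log2 differences of 0.17, 0.13 and 0.15. The lowest difference in that list was -0.09. Nfkb2 and Rela lie on chromosome 19, where the median difference of all peaks was 0.20, so these counts also hold differences by region. The median was 0.02 for chaperones, -0.0019 for respiratory chain genes and 0.14 for histones. The histone H2ac6 (0.12) lies at 20 to 30 Mb of chromosome 13, where all 13 strong peaks, H2ac6 among them, were higher, with a median of 0.14. H2bc18 (-0.14) and H2ac20 (-0.10) lie at 90 to 100 Mb of chromosome 3, where the median of strong peaks was -0.10. The histone median thus also holds differences by region. Cebpa, a factor of myeloid and lung epithelial cells, held 594 and 799 reads (adjusted p 0.0583, authors' deposited table).

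At the Malat1 locus itself a single promoter peak was strong. It lay 812 bp upstream of the start site and held 789 reads with the luciferase guide and 758 with the Malat1 guide (adjusted p 0.983, authors' deposited table). The peak over the start site was weaker (290 and 322) and fell outside the rule. The level of Malat1 RNA is not part of these data. Neat1, the neighbouring long noncoding RNA gene and scaffold of paraspeckles, held 949 and 1084 reads. Of 23 neighbouring genes with a promoter peak 12 had a strong one, and 11 of their 13 strong peaks had a higher mean with the Malat1 guide, with a median log2 difference of 0.17 and no call. Over the whole of chromosome 19 the same held for 146 of 154 strong peaks, with a median of 0.14, and the median of peaks outside promoters there was 0.22.

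Where a strong promoter lay in the genome went with its difference. By chromosome the median log2 difference of strong promoter peaks ran from -0.19 on X, where the Malat1 guide had the higher mean in 2 of 58, to 0.19 on 13 and 0.20 on 16, where all 75 and all 68 did. Peaks outside promoters, which the rule did not read, ran in nearly the same order. Over 20 chromosomes Pearson's r between the medians of strong promoter peaks and of peaks outside promoters was 0.97 and Spearman's rho 0.97, and over 146 windows of 10 Mb with 8 or more strong peaks r was 0.87 and rho 0.83. These points come from the same libraries and are given without a p. The lowest windows lay at the end of chromosome 1, with medians of -0.36 at 190 to 200 Mb and -0.32 at 180 to 190 Mb, where Sde2 lies, and none of the 8 and none of the 17 strong peaks there had the higher mean. Over 1239 genes with 3 or more peaks outside the promoter, r between the strong promoter and the median of those peaks was 0.46, and it was 0.34 with chromosome medians and 0.24 with window medians subtracted.

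**Figure D4:**
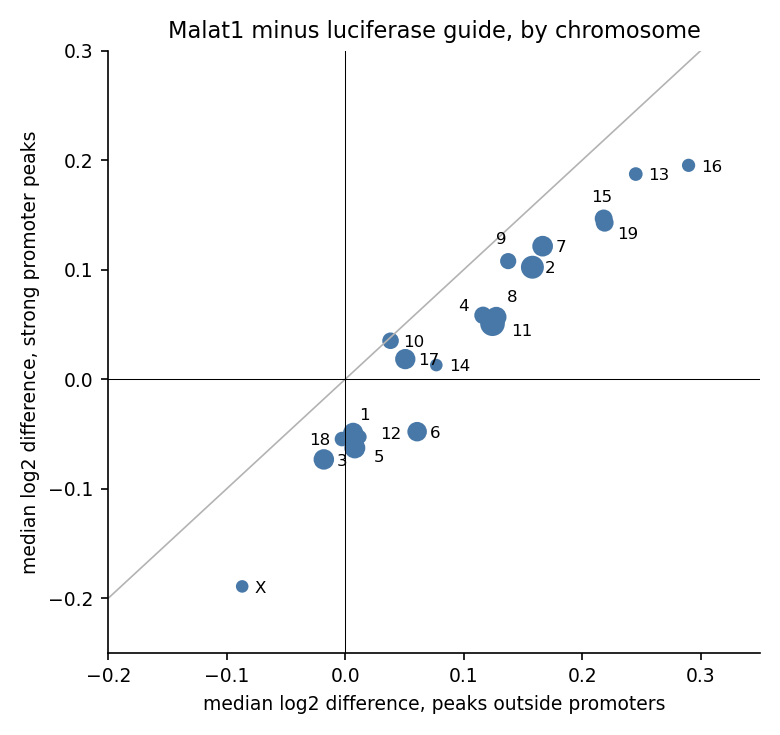
Median log2 difference (Malat1 minus luciferase guide) of strong promoter peaks (y axis) against that of peaks outside promoters (x axis) for 20 chromosomes; point size grows with the number of strong promoter peaks and the grey line marks equality. Chromosomes 13 and 16 lie highest and X lowest, and all 20 points lie below the line.

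Many of the higher calls lay near another higher call. Of the 20 higher calls, 13 lay within 1 Mb of another, and of the 7 lower calls 2, Fbxo5 and Mtrf1l, 18.6 kb apart on chromosome 10. How often strong promoter peaks in general lie within 1 Mb of each other was not counted, so these counts have no baseline. On chromosome 11 Jup, Stat5a and Cavin1 formed such a group, as did B3gntl1 and Metrnl, 29.1 kb apart. On chromosome 19, 10 strong peaks were called higher, and 8 of them, at Btrc, Hps6, Nolc1, Gbf1, Actr1a, Wbp1l, Sfr1 and Gsto2, lay between 45 and 48 Mb. In that stretch, whose bounds were set after the values were seen, all 15 strong promoter peaks had the higher mean, with a median log2 difference of 0.44 and a range of 0.11 to 0.57. Nfkb2 is one of the 15. Of 210 peaks outside promoters in the same stretch 183 were higher, with a median of 0.42.

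**Figure D5:**
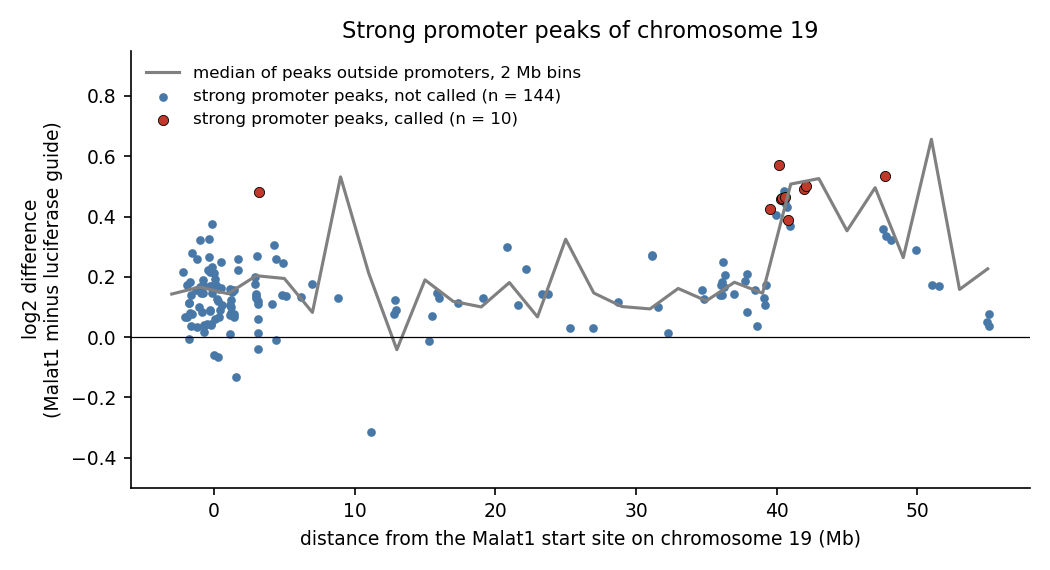
Log2 difference between the Malat1 and luciferase guides (y axis) of the 154 strong promoter peaks of chromosome 19 by distance from the Malat1 start site (x axis, Mb); the 10 called peaks are outlined in red, and the grey line is the median of peaks outside promoters in bins of 2 Mb. The line is at 0.51 and 0.53 in the bins centred 41 and 43 Mb from Malat1, and as high or nearly so at 9 Mb (0.53) and 47 Mb (0.50) and highest at 51 Mb (0.66); 8 of the 10 calls lie between 39 and 43 Mb.

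Subtracting the surrounding difference, or that of all peaks, changed the calls. The centred p was computed over all peaks from the authors' p, with the error that this p implies held at or above that of peaks of like level. With differences centred on the median of their chromosome, 2 of the 20 higher and all 7 lower calls were still made, and with centring on their 10 Mb window 2 of 20 and 2 of 7. Jup, Myh10, Dclk1 and Engase were called under every centring tried, and with window centring their adjusted p were 0.000819, 0.0210, 0.00408 and 0.00239. Fbxo5 and Mtrf1l lie in a window with a median of -0.32, Baz1b in one of -0.19. In all, centring on the median of all peaks, 0.09, gave 5 strong peaks higher and 29 lower (1.61% and 0.725% of all peaks). Centring by chromosome gave 2 and 9 (1.45% and 0.587% of all peaks), and centring by window 3 and 3 (1.31% and 0.544%). Without the lower bound on the error the counts were 5 and 39 by the median of all peaks (1.65% and 0.837% of all peaks), 2 and 17 by chromosome (1.5% and 0.702%) and 5 and 11 by window (1.37% and 0.67%). What sets these regional differences was not tested.

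Peaks outside the promoters of the called genes mostly differed in the same direction: the mean was higher in 85 of 94 for the genes with a higher call, and lower in 36 of 47 for those with a lower call. Over all genes with a strong promoter, 60.8% of such peaks had the higher mean. At 45 to 48 Mb of chromosome 19, where 8 of the higher calls lie, 183 of 210 did, whatever their gene. These counts therefore do not separate a gene from its region. Of these, 9 were called higher and 1, at Dclk1, lower. All 11 of Ahnak, a large scaffold protein, all 9 of Zswim6, all 8 of Dusp5 and 11 of 12 of Angptl2 had the higher mean, and 4 of the Angptl2 peaks were called higher. Engase differed, with 5 of 9 higher and a median of 0.02. For all genes with a strong promoter, 1.71% of 10164 peaks outside promoters were called higher and 0.482% lower, and for genes with weaker promoter peaks only, 2.31% and 0.502% of 31463. Promoters with and without a CCAAT box had median log2 differences of 0.06 and 0.05.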

How the data were processed

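ATAC-seq libraries of KPC cells were made with a commercial kit, per the labels' protocols. The submitters' processing notes name the build mm10 and the tools DiffBind, MACS2, ChIPseeker, Bowtie2, Picard, FastQC and deepTools. Not given in the sources used here are the normalization, the handling of duplicates and whether reads were pooled to call peaks. In the table that the authors deposited are, per the file headers, log2 mean normalized reads of each group, the p-value and adjusted p-value of the contrast, and the distance in bp from the assigned start site. Per the file headers the groups are dmA12 and dLuc, taken as mA2 dRNA and Con dRNA because the series has a single contrast. The 4 columns of values per library match no label and were not used. Nothing in the labels beyond "biological replicate" says how the 2 samples of a group were kept apart.

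A difference is the luciferase log2 mean subtracted from the Malat1 log2 mean. The deposited adjusted p matched a Benjamini-Hochberg adjustment over all 80881 peaks within 7.40e-06. Centred p-values came from the difference divided by the error that the deposited p implies. After the counts of calls from this planned form were seen, a lower bound was put on that error, at the 10th percentile among peaks of like level (50 classes) with a normal score over 2, because the ratio is unstable for differences near 0. Both forms are reported. RefSeq promoter windows (GRCm38.p6) were matched by gene ID with an overlap of at least 1 base, where matching by symbol had been planned, and 12 motifs were searched on both strands. Members, motifs and 20 gene lists were chosen with earlier results of these data known. Named genes are up to 12 called peaks per direction with the smallest p, the 12 highest control levels, up to 3 genes per list by control level and any called, 5 peaks on each side of the cutoff, the 5 largest differences per direction, and Malat1 and Ccl2. A gene and a list that this rule covers are not reported here. Other genes in the text were picked after their values were seen. Recentring and motif search were tested on simulated data. Python 3.11.15, pandas 2.3.3, numpy 2.4.6, scipy 1.17.1 and matplotlib 3.10.9 were used.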

Additional observations from a re-analysis of the deposited data

How the results depend on the processing

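The number of strong promoter peaks was 5208 at a control log2 mean of 8.5 and 1557 at 9.5. Their median log2 difference, 0.05, was 0.0609 when the cutoff read the mean of both groups and 0.0725 when it read the mean with the Malat1 guide. It changed sign, to -0.0400, -0.0443 and -0.0335, when the median of all peaks (0.09), of the chromosome or of the 10 Mb window was subtracted, so a higher mean in most strong peaks holds only without centring. Of calls, 20 higher and 7 lower, 7 and 3 passed an adjusted p under 0.01 in the authors' deposited table (1.07% and 0.209% of all peaks). Under 0.10 the lower calls were 12 (0.778% of all peaks). A cutoff of 9.5 gave 8 higher, a cutoff on the mean with the Malat1 guide 34 higher, and peaks over the start site alone 12 higher and 4 lower. Over all peaks 2.23% were called higher and 0.507% lower. A cutoff on the Malat1 guide takes in 355 promoter peaks that reach 512 reads in that group alone. More higher calls and a larger median difference under it are built into the selection. The main rule, on the control mean, builds in the opposite: fewer higher calls, more lower calls and a smaller median difference. That holds for the centred values as well. Centring by the median of all peaks gave 5 higher and 39 lower, or 5 and 29 with the error bounded below. Chromosome centring gave 2 and 17 (2 higher with the bound), and window centring 5 and 11 (3 and 3). The bound was chosen after the unbounded counts were seen, as were chromosome and window centring and the start-site, 9.5 and overlap settings for calls and motifs. Median centring ended 15 of the 20 higher calls and chromosome and window centring 18 each, in both forms, at adjusted p of 0.0562 to 1, because a positive difference was subtracted. The 7 lower calls held under median and chromosome centring, and window centring ended 5. In the 100 bases before the start site, a shorter window by construction, the shares of strong promoters were 38.4% for CCAAT (18.4% of other promoters), 39.9% for SP/KLF, 11.1% for ETS, 2.69% for NRF1, 0.673% for YY1, 2.40% for BANP, 2.48% and 4.04% for the cyclic AMP element and TGACGTNA, 4.71% for the E-box, 0.968% for AP-1, 1.51% for TATA and 0.294% for NF-kB. No paired analysis was possible because no column of values carries a sample name. For the same reason leaving out a library, DESeq2, TMM and low-count filters were not run. Motifs in the peak interval were not searched, as no genome was used, and the class within 1 kb holds every promoter peak. Depth per library is unknown here, so the peaks near 512 reads have no stated precision.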
